A study of Canis lupus familiaris with 7 samples.

Results

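The genes described here are markers and regulators of T cells and natural killer (NK) cells together with the immune checkpoint receptors and ligands, taken as a list of 37 gene symbols grouped by role. Of these, 35 matched a row of the deposited table of 24580 genes by symbol. The symbol *CTLA4* had no row, but a row listed under its older name *CD152* was found through a RefSeq synonym and is described on its own, and *CD4* was not analysed here. Of the 35 genes, 24 reached a mean of 1 FPKM over all samples and were tested, and 11 lay below this limit and are given by their values.

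RNAseq had been performed on bone tissue of dogs with osteosarcoma (OSA), a malignant bone tumor. The non-tumor group held 4 samples of grossly non-malignant bone (N1, N3, N8 and N9), and the OSA tumor group held 3 samples of histologically diagnosed osteosarcoma (T1, T3 and T10). Tissue was taken as a small block of tumor or of the bone next to it, after amputation or euthanasia, and no sample was sorted for a cell type. Breed, age, sex and treatment of the sequenced dogs are not given by the labels, and although the tissue is described as matched, neither the labels nor the methods say that N1 and T1, or N3 and T3, came from 1 dog. The values are FPKM (fragment numbers scaled by transcript length and by library size), so that levels of different genes can be compared.

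A T cell recognises antigen through the T cell receptor, whose signal is carried into the cell by the CD3 chains and CD247 and passed on by the kinases LCK and ZAP70. CD28, ICOS, CD27 and TNFRSF9 are receptors that add to this signal, while PDCD1, CTLA4, LAG3, TIGIT and HAVCR2 are checkpoint receptors that dampen it when they meet ligands such as CD274 (PD-L1) on tumor or myeloid cells. Killing by CD8 T cells and NK cells relies on granules that hold perforin and granzymes, and in bulk tissue these genes are commonly read as a measure of lymphocytes in a tumor. Red marrow also holds T cells and NK cells, and it can be part of a block of bone.

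The samples differed in their content of other cell types. Summed FPKM of neutrophil and granulocyte precursor markers were 58937 in N3 and 65460 in N8 and between 67.9 and 2022 in the other 5 samples. Erythroid markers summed to 3012 in N3 and 4525 in N8 and to at most 191 elsewhere, and skeletal muscle markers to 84280 in N8 and 53531 in N9. Osteoblast markers, which the labelled tissue should hold, were present in every sample, with sums of 16048 in N1, 12709 in T1 and between 188 and 3876 in the others. Listed zeros lower some of these sums: *COL1A1* was at 0 in T1, where *COL1A2* was at 9139 FPKM, and *CKM* was at 0 in N9 but at 35044 in N8, so N1 and T1, or N8 and N9, cannot be ordered by them. Depth relative to N1, read from the steps between low FPKM values and including the authors' normalization, ranged from 0.543 in N8 to 1.44 in T10.

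In no role group was more than 1 gene called between tumor and non-tumor bone. By limma, 1 of the 24 tested genes was called lower in OSA tumor, the granule gene *NKG7*, and 1 was called higher, the checkpoint ligand *CD276*, where a call needed a 2-fold or larger change and an unadjusted p below 0.05. Among all 13507 tested genes 3.58% were called lower and 3.28% higher, so 1 gene in each direction was near the share found in the table as a whole. By limma, 0 genes in the table reached a Benjamini-Hochberg adjusted p under 0.05, the smallest adjusted p being 0.693, while 927 genes had an unadjusted p under 0.05. Under other settings adjusted p-values under 0.05 were reached by 3 genes after rescaling to the same sum, 12 without N1 and 1 without T1. Neither *NKG7* nor *CD276* was among them, with adjusted p-values by limma of 0.0532 and 0.0936 without N1. The median log2 fold change of the 24 genes was -0.08, beside -0.02 over all tested genes, and 14 had a negative and 10 a positive value. Without N3 the median was 0.36, with 12 positive values among the 18 genes then tested and 0 called. *CD3D*, *ZAP70*, *GZMA*, *GZMB*, *IL2RA* and *IL2RB*, all but *GZMB* negative with all samples, then fell under the filter. The 2 medians are therefore over different sets of genes. In bulk tissue, fewer cells of a type and less RNA per cell cannot be told apart. An exact permutation test over the 35 assignments of the samples gave a two-sided p between 0.114 and 1 for the 35 genes, where 4 against 3 samples can give no p below 0.0571.

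**Figure D1:**
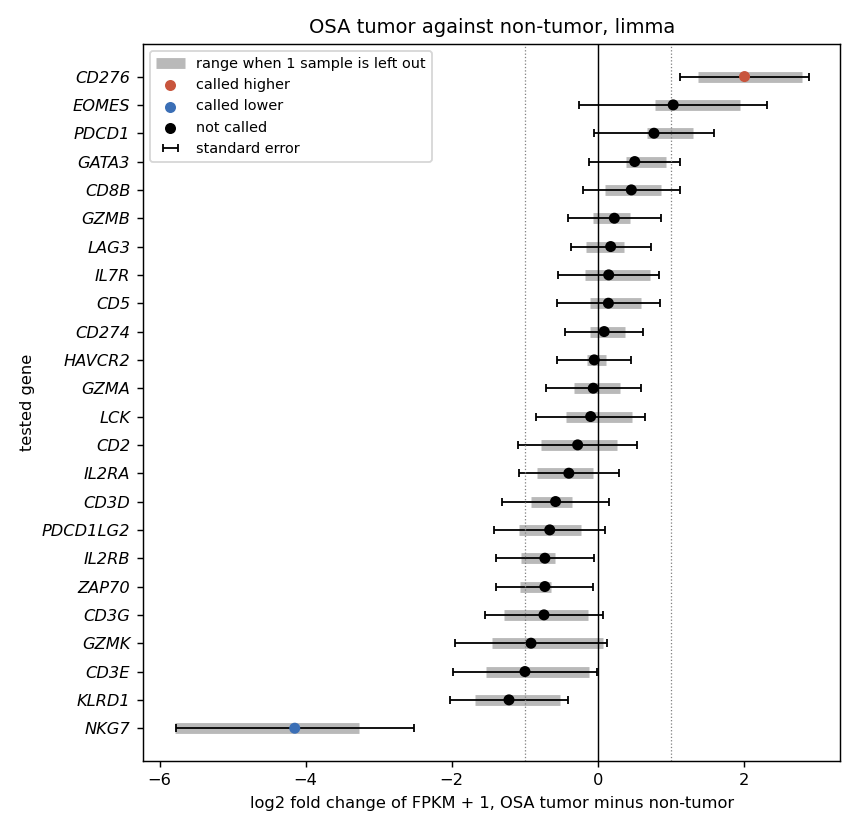
Log2 fold change of FPKM + 1 (x axis, OSA tumor minus non-tumor) of the 24 tested genes (y axis) by limma, with 4 non-tumor and 3 tumor samples. Points are the fold changes, whiskers the standard errors and grey bars the range over the fits with 1 sample left out in which the gene was still tested, with dotted lines at -1 and 1. *CD276* at 2.01 and *NKG7* at -4.15 were called, and the other genes lie between -1.21 (*KLRD1*) and 1.04 (*EOMES*).

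The spread between samples was large beside these differences. In 21 of the 24 tested genes the absolute log2 fold change was under the pooled standard deviation, and in 24 of 24 it was under the range of the non-tumor samples alone. The median pooled standard deviation was 0.988 on the log2 scale and the median absolute fold change 0.542. In 0 of the 35 genes did the tumor and non-tumor samples fail to overlap, where 5.85% of all tested genes had groups that did not overlap.

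The main contrast was between single samples, and N3 stood above the rest. N3 held the highest value of the 7 samples in 24 of the 35 genes, 68.6% of them, whereas it was highest in 12.6% of all genes detected in the table. Of the 24 tested genes it was highest in 16, beside 11.8% of all tested genes. T3 was highest in *CD5*, *PDCD1*, *EOMES* and *GATA3*, T10 in *ICOS*, *LAG3*, *HAVCR2* and *FOXP3*, T1 in *TNFRSF9* and *CD276*, and N8 in *PDCD1LG2*. N1 and N9 were highest in 0 of the 35 genes. The number of genes at 1 FPKM or more was 31 in N3 and 19 in N8, but 7 in N1 and 5 in N9, and it was 5 in T1, 19 in T3 and 16 in T10. Levels were low throughout, with 28 of the 35 genes under 10 FPKM in all samples and 4 under 1 FPKM in all samples.

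**Figure D2:**
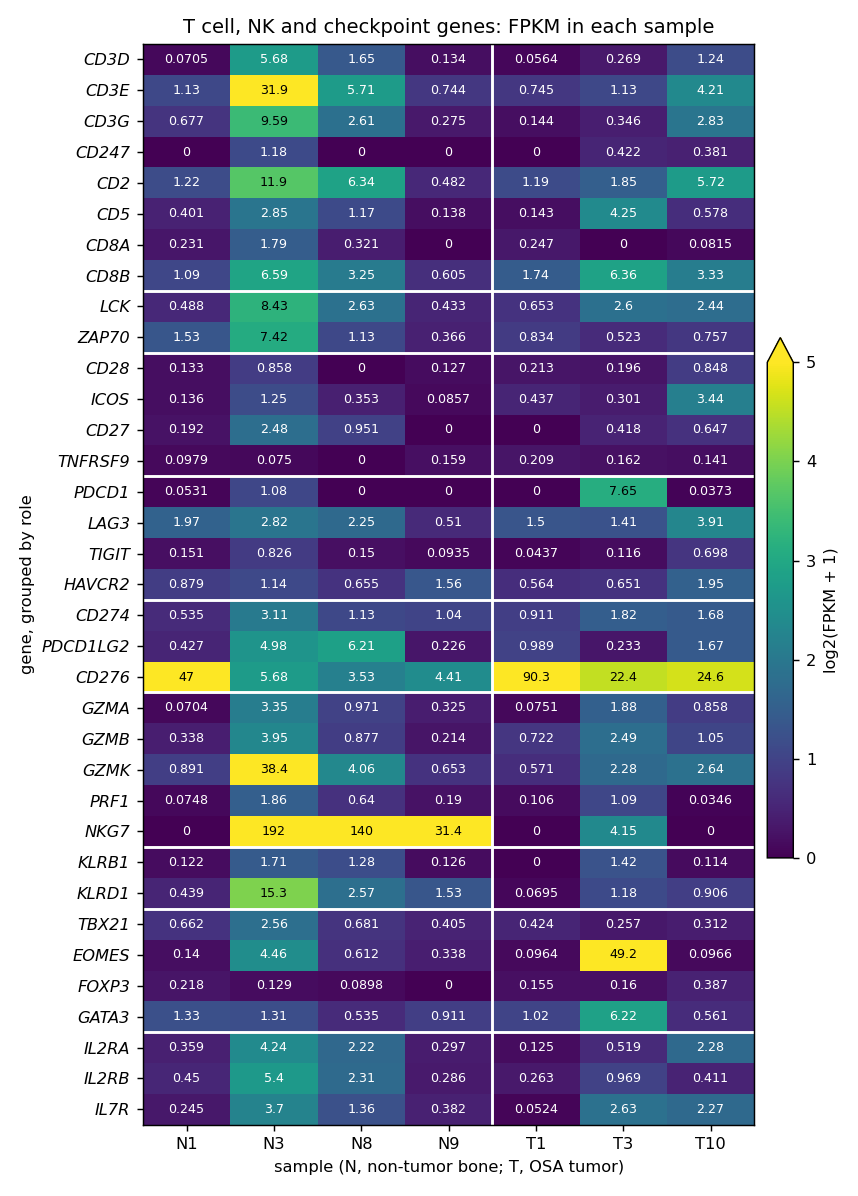
FPKM of the 35 genes (rows, by role and separated by white lines) in the 4 non-tumor and 3 OSA tumor samples (columns), printed in each cell. Colour is log2(FPKM + 1), with values above 5 on that scale shown in the top colour. The column of N3 holds the highest value in 24 of the 35 rows, and T3 stands out in *EOMES* at 49.2 FPKM, *PDCD1* at 7.65 and *GATA3* at 6.22.

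The CD3 chains, which mark all T cells, were highest in N3. *CD3E* (chromosome 5, 15403642 to 15415551, CanFam3.1) was at 1.13, 31.9, 5.71 and 0.744 FPKM in N1, N3, N8 and N9, and at 0.745, 1.13 and 4.21 FPKM in T1, T3 and T10. The non-tumor samples thus held both the highest value and the lowest, and T10 lay near N8 while T1 and T3 lay near N1 and N9. The mean was 9.88 ± 14.9 FPKM in non-tumor (SD, n = 4) and 2.03 ± 1.90 in tumor (SD, n = 3). The log2 fold change by limma was -0.995 with a standard error of 0.99 (unadjusted p = 0.339, adjusted p = 0.813), and with a sample left out it ranged from -1.54 without N9 to -0.12 without N3. *CD3D* and *CD3G* lie beside it on chromosome 5, between 15377812 and 15399427. The 3 chains summed to 47.2 FPKM in N3, 9.96 in N8 and 8.28 in T10, and to between 0.945 and 1.88 in N1, N9, T1 and T3. The estimated numbers of fragments behind *CD3D* were 429 in N3, 101 in T10, 51 in N8, 19 in T3 and 3 to 5 in N1, N9 and T1, so the values of the last 3 samples rest on very few fragments. *CD247*, the zeta chain of the receptor, was listed at 0 in N1, N8, N9 and T1, at 1.18 in N3, 0.422 in T3 and 0.381 in T10.

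*CD2*, an adhesion receptor of T and NK cells, followed the CD3 chains, with 11.9 FPKM in N3, 6.34 in N8 and 5.72 in T10 and between 0.482 and 1.85 in the others. *CD5*, a receptor that tempers the antigen signal, had another order, with 4.25 FPKM in T3 above 2.85 in N3, and at most 1.17 in the other 5 samples. Its interval in the deposited table (chromosome 18, 55155640 to 55376294) was shared by 6 genes, among them its relative *CD6*, which was at 12.2 FPKM in T3 and 2.96 in N3. The co-receptor chain *CD8B* was above *CD8A* in all 7 samples. *CD8B* was at 6.59 FPKM in N3 and 6.36 in T3, between 0.605 and 3.33 in the other 5, while *CD8A* was listed at 0 in T3 and N9 and reached 1.79 only in N3. The estimated fragments of *CD8A* were 41 in N3 and 0 to 4 elsewhere, so its values outside N3 rest on very few fragments. A listed 0 can also be a failed estimate. Of the 6 tested genes of the receptor complex and lineage, 0 were called, and their median log2 fold change was -0.42.

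The kinases that pass on the receptor signal differed from each other in the tumors. *LCK* was at 8.43 FPKM in N3, at 2.63 in N8, 2.60 in T3 and 2.44 in T10, and between 0.433 and 0.653 in N1, N9 and T1. *ZAP70* was at 7.42 FPKM in N3, 1.53 in N1 and 1.13 in N8, and between 0.366 and 0.834 in N9 and the 3 tumors. The tumor values of *ZAP70* were narrow, 0.705 ± 0.162 FPKM (SD, n = 3), and lay inside the non-tumor range. Neither was called, with log2 fold changes of -0.10 and -0.72.

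The 4 co-stimulatory receptors were all under the limit of 1 FPKM on average. *ICOS*, a receptor of activated and helper T cells (chromosome 37, 12670999 to 12737748), was at 0.136, 1.25, 0.353 and 0.0857 FPKM in N1, N3, N8 and N9, and at 0.437, 0.301 and 3.44 FPKM in T1, T3 and T10. T10 was the highest sample, and T1 and T3 lay within the non-tumor range (exact permutation p = 0.400). *CD28*, the principal co-stimulatory receptor, reached 0.858 FPKM in N3 and 0.848 in T10 and at most 0.213 elsewhere. *CD27* was at 2.48 FPKM in N3 and under 1 FPKM in the other 6 samples. *TNFRSF9* (4-1BB) was under 0.21 FPKM in all samples, its 3 tumor values at 0.141 to 0.209 and the non-tumor values from 0 to 0.159. These *TNFRSF9* values correspond to 0 to 2 estimated fragments per sample, so no difference was detectable at this depth.

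The checkpoint receptors did not move as a group. *PDCD1* (PD-1, chromosome 25, 51581424 to 51618669) was at 0.0531, 1.08, 0 and 0 FPKM in N1, N3, N8 and N9, and at 0, 7.65 and 0.0373 FPKM in T1, T3 and T10. T3 alone was high among the tumors, at 7.07 times the next sample, N3, while T1 and T10 were at or near 0. The log2 fold change was 0.77 with a standard error of 0.82 by limma (unadjusted p = 0.369). The interval was shared with *GAL3ST2*, which was at 0.331 FPKM in T3 and listed at 0 elsewhere. *LAG3* lay between 0.510 and 2.82 FPKM in non-tumor and between 1.41 and 3.91 in tumor, and *HAVCR2* (TIM-3), which is also made by myeloid cells, between 0.655 and 1.56 and between 0.564 and 1.95. *TIGIT* reached 0.826 FPKM in N3 and 0.698 in T10 and at most 0.151 in the others.

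*CTLA4*, read from the row listed as *CD152* (ENSCAFG00000012876, chromosome 37, 12647638 to 12653873), lies next to *ICOS*. It was at 0.102, 1.56, 0.125 and 0.0524 FPKM in N1, N3, N8 and N9, and at 2.04, 0.551 and 1.49 FPKM in T1, T3 and T10. All 3 tumors lay above N1, N8 and N9, and N3 lay among the tumors. The mean was 0.460 ± 0.733 FPKM in non-tumor (SD, n = 4) and 1.36 ± 0.751 in tumor (SD, n = 3), with an exact permutation p of 0.171. Its mean over all samples, 0.846 FPKM, was under the limit for the test across genes.

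Among the checkpoint ligands *CD276* (B7-H3), a B7 family protein made by many non-lymphoid cells and solid tumors, was the one gene called higher. *CD276* (chromosome 30, 36974802 to 36990110) was at 47.0, 5.68, 3.53 and 4.41 FPKM in N1, N3, N8 and N9, and at 90.3, 22.4 and 24.6 FPKM in T1, T3 and T10. All tumors were above N3, N8 and N9, but N1 was above T3 and T10, so the groups overlapped. The log2 fold change was 2.01 with a standard error of 0.88 by limma (unadjusted p = 0.0468, adjusted p = 0.693), and the exact permutation p was 0.171. With a sample left out in turn the call was kept without N1 alone, at 2.80 (unadjusted p = 0.00156), and it was lost without N3 (1.85), N8 (1.66), N9 (1.75), T1 (1.38), T3 (2.36) or T10 (2.30). It was also lost without the filter on low values (unadjusted p = 0.0637 by limma) and after quantile normalization (2.08, unadjusted p = 0.0567 by limma). N1 and T1, the samples with the most *CD276*, also had the highest summed osteoblast markers, 16048 and 12709 FPKM against at most 3876 elsewhere, and the highest osteoclast markers, 1621 and 3395 against at most 586. The part of these cells in the *CD276* values was not tested.

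The ligands of PD-1 stood at lower levels and were not called. *CD274* (PD-L1) was at 0.535, 3.11, 1.13 and 1.04 FPKM in N1, N3, N8 and N9, and at 0.911, 1.82 and 1.68 FPKM in T1, T3 and T10, with a log2 fold change of 0.09 and a standard error of 0.53. The tumor values all lay within the non-tumor range. *PDCD1LG2* (PD-L2) was at 6.21 FPKM in N8 and 4.98 in N3, and between 0.226 and 1.67 in the other 5 samples, with a log2 fold change of -0.66 and a standard error of 0.76. *CD276* was above *CD274* in all 7 samples, by 87.9 times in N1 and 99.1 in T1, 12.3 in T3 and 14.7 in T10, and by 1.83 to 4.24 times in N3, N8 and N9.

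The cytotoxic granule genes were again highest in N3. *GZMK* (chromosome 4, 60559232 to 60569183), a granzyme of memory CD8 T cells, was at 0.891, 38.4, 4.06 and 0.653 FPKM in N1, N3, N8 and N9, and at 0.571, 2.28 and 2.64 FPKM in T1, T3 and T10. T3 and T10 lay between N1 and N8, T1 was just below the lowest non-tumor sample, and the log2 fold change of -0.91 (standard error 1.04) ranged from -1.44 without N9 to 0.08 without N3. *GZMB*, the granzyme of activated killer cells, was at 3.95 FPKM in N3, 2.49 in T3 and 1.05 in T10, and between 0.214 and 0.877 in the others. *GZMA* reached 3.35 FPKM in N3 and 1.88 in T3, with estimated fragments of 127 and 66, and *PRF1* (perforin) 1.86 and 1.09, with 100 and 54. Both were lowest in N1 or in a tumor, with *PRF1* in T10 at 0.0346 FPKM and 2 estimated fragments. *GZMA* and *GZMB* had log2 fold changes of -0.06 and 0.23 and were not called.

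*NKG7*, a membrane protein of cytotoxic granules, was the one gene called lower. Its row (chromosome 1, 105608388 to 105608531) spans only 144 bases, so its FPKM come from a very short stretch and may not reflect the whole gene. *NKG7* was at 0, 192, 140 and 31.4 FPKM in N1, N3, N8 and N9, and at 0, 4.15 and 0 FPKM in T1, T3 and T10. N3, N8 and N9 were above all tumors, and N1 was at 0 with T1 and T10, so the groups overlapped. A listed 0 can be a failed estimate, and the call was lost without T1 or T10, both at 0. The log2 fold change was -4.15 with a standard error of 1.63 by limma (unadjusted p = 0.0304, adjusted p = 0.693), and the exact permutation p was 0.229. The call was kept without N1 (-5.79) or T3 (-4.94) and lost without N3 (-3.26), N8 (-3.42), N9 (-4.12), T1 (-3.75) or T10 (-3.75). It was also lost with a pseudocount of 0.01 (-7.00, unadjusted p = 0.0711 by limma) and without the filter on low values (unadjusted p = 0.0523 by limma). A fit on N1, N3, T1 and T3 alone, with the shared sample number as a block, lost it too (-2.61, unadjusted p = 0.0645 by limma). In N9 *NKG7* was at 31.4 FPKM where *PRF1* was at 0.190 and *GZMB* at 0.214, whereas in T10 it was listed at 0 where *GZMB* was at 1.05.

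The NK receptors had their highest values in N3 too. *KLRD1* (CD94, chromosome 27, 35699175 to 35707408), which pairs with NKG2 receptors on NK cells and CD8 T cells, was at 0.439, 15.3, 2.57 and 1.53 FPKM in N1, N3, N8 and N9, and at 0.0695, 1.18 and 0.906 FPKM in T1, T3 and T10. The tumors lay below N3, N8 and N9 and around N1. The log2 fold change of -1.21 had a standard error of 0.81 by limma (unadjusted p = 0.166) and was -0.52 without N3. *KLRB1* (CD161) was at 1.71 FPKM in N3, 1.42 in T3 and 1.28 in N8 and between 0 and 0.126 in the other 4 samples.

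The lineage transcription factors differed from each other in their order over the samples. *EOMES* (chromosome 23, 16505623 to 16512410), a T-box factor of memory and killer lymphocytes, was at 0.140, 4.46, 0.612 and 0.338 FPKM in N1, N3, N8 and N9, and at 0.0964, 49.2 and 0.0966 FPKM in T1, T3 and T10. T3 was at 11.0 times the next sample, while T1 and T10 were the lowest of all 7. The tumor mean of 16.45 ± 28.3 FPKM (SD, n = 3) therefore rests on 1 sample, and the log2 fold change of 1.04 had a standard error of 1.29 (unadjusted p = 0.442). *TBX21* (T-bet), the T-box factor of Th1 and NK cells, did not share this peak, at 0.257 FPKM in T3 and 2.56 in N3. Its tumor values of 0.257 to 0.424 FPKM lay below N1, N3 and N8, and T1 was just above N9 at 0.405 (exact permutation p = 0.114). *GATA3*, a factor of Th2 cells that other tissues make as well, was at 6.22 FPKM in T3 and between 0.535 and 1.33 in the other 6. *FOXP3*, the factor of regulatory T cells, was under 0.4 FPKM in all samples, highest at 0.387 in T10 and listed at 0 in N9, and its interval on the X chromosome was shared with *CCDC22*.

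The cytokine receptors followed the CD3 chains in the non-tumor samples. *IL2RA* (CD25) was at 4.24 FPKM in N3, 2.22 in N8 and 2.28 in T10, and at most 0.519 in the others. *IL2RB*, the shared beta chain of the IL-2 and IL-15 receptors, was at 5.40 FPKM in N3 and 2.31 in N8 and under 1 FPKM in the remaining 5 samples. *IL7R*, the receptor of naive and memory T cells, was at 3.70 FPKM in N3, 1.36 in N8, 2.63 in T3 and 2.27 in T10, and at 0.0524 in T1, where it corresponds to 1 estimated fragment. The log2 fold changes were -0.39, -0.72 and 0.15, and 0 of the 3 were called.

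**Figure D3:**
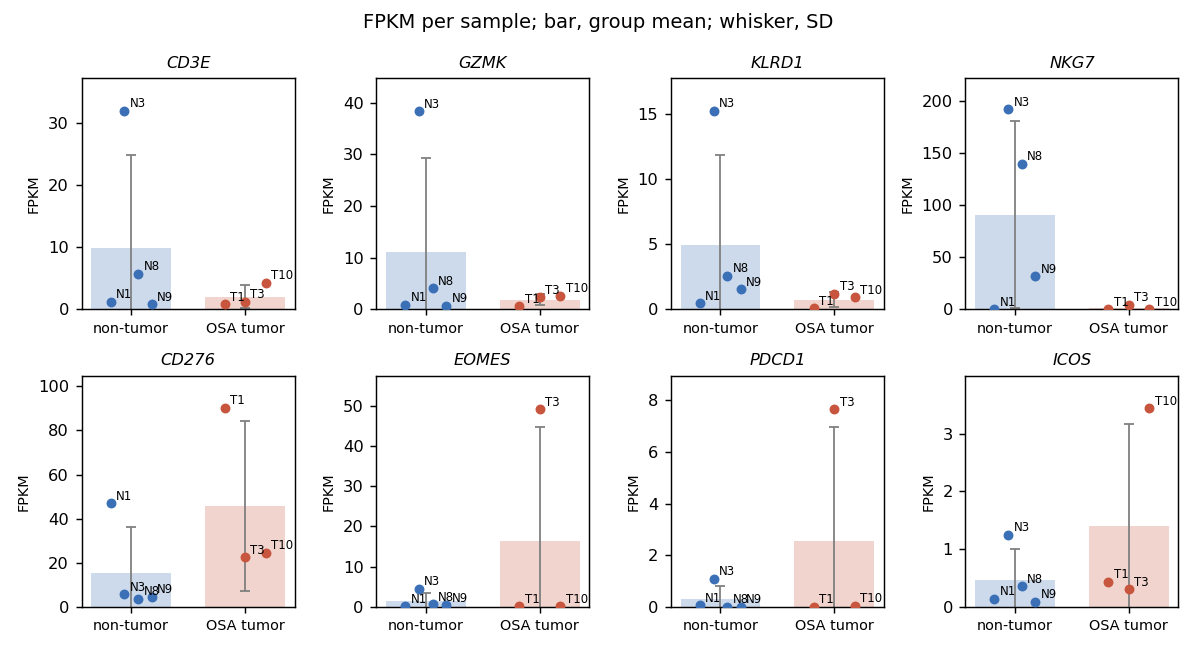
FPKM (y axis, linear and starting at 0) of 8 genes in non-tumor and OSA tumor samples, each point 1 sample, with the group mean as a bar and the SD as a whisker. N3 carries the non-tumor mean of *CD3E*, *GZMK* and *KLRD1*, T3 the tumor mean of *EOMES* and *PDCD1*, and T10 that of *ICOS*.

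To describe the composition apart from the amount of T cell RNA, levels were divided by that of *CD3E* in the same sample. These ratios share their denominator, 9 were fixed in the design and 8 were added after the values were seen, and they are given as a description with no test. *GZMK* kept a narrow ratio to *CD3E*, from 0.626 in T10 to 2.01 in T3, a span of 3.21-fold, although *CD3E* itself spanned 42.9-fold and *GZMK* 67.3-fold. The ratio of *CD2* to *CD3E* spanned 4.39-fold, from 0.373 in N3 to 1.64 in T3, and all tumors (1.36 to 1.64) were above all non-tumor samples (0.373 to 1.11).

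*CTLA4* and *ICOS* were higher relative to *CD3E* in every tumor than in any non-tumor sample. The ratio of *CTLA4* to *CD3E* was 0.0902, 0.0488, 0.0220 and 0.0705 in N1, N3, N8 and N9, and 2.73 in T1, 0.487 in T3 and 0.355 in T10. That of *ICOS* to *CD3E* was 0.1198, 0.0392, 0.0619 and 0.115 in the non-tumor samples in the same order, and 0.588 in T1, 0.266 in T3 and 0.818 in T10. The high level of *CTLA4* and *ICOS* in N3 therefore went with a low ratio, and the low *ICOS* of T1 and T3 with a high one. The ratio of *GZMK* to *GZMB* was 2.64 to 9.73 in the non-tumor samples and 0.790 to 2.51 in the tumors, again without overlap. In all, 4 of the 17 ratios had groups that did not overlap, those of *CTLA4* to *CD3E* and *GZMK* to *GZMB* fixed in the design and those of *ICOS* and *CD2* to *CD3E* added after the values were seen. Among single genes 5.85% had groups that did not overlap, no such share was computed for ratios, and in T1 the denominator, *CD3E*, was at 0.745 FPKM, close to its lowest value. The ratio of *LCK* to *CD3E* was also mostly higher in the tumors, at 0.581 to 2.30 against 0.264 to 0.582 in the non-tumor samples. Ratios of *CTLA4* and *ICOS* to another T cell gene were not computed, so whether their separation holds for another denominator was not tested.

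T3 stood apart from all other samples in several ratios. The ratio of *EOMES* was 43.4 in T3 and between 0.0230 and 0.454 in the other 6 samples, and that of *PDCD1* was 6.76 in T3 and at most 0.0469 elsewhere. *GATA3*, *CD5* and *LCK* were also highest relative to *CD3E* in T3, at 5.49, 3.75 and 2.30. *PTPRC* (CD45), the surface phosphatase of all leukocytes, was lowest in T3, at 4.69 FPKM against 5.21 to 89.98 in the others. Which cells carried the *EOMES* and *PDCD1* RNA of T3 was not tested. *FOXP3* relative to *CD3E* was 0.0919 to 0.208 in the tumors and 0 to 0.192 in the non-tumor samples.

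**Figure D4:**
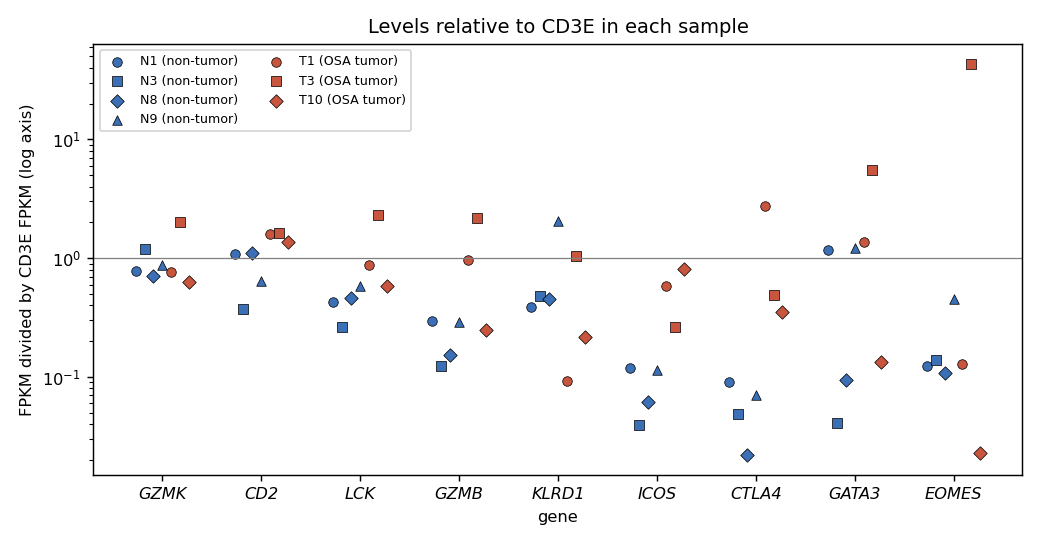
FPKM of 9 genes divided by the FPKM of *CD3E* in the same sample (y axis, log scale) for the 4 non-tumor and 3 OSA tumor samples. The points of *GZMK* lie between 0.626 and 2.01, the tumors lie above the non-tumor samples for *CD2*, *ICOS* and *CTLA4*, and T3 is at 43.4 for *EOMES*.

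A further 99 symbols of T cell receptor signalling, cytotoxicity, co-stimulation and cytokine signalling were counted in the same fit. Of these 87 were in the table and 69 were tested, with 0 called higher and 2 called lower, where 3.28% and 3.58% of all tested genes were called, so the calls were not more frequent than in the table as a whole. Their median log2 fold change was -0.51, 46 of the 69 were negative, and N3 held the highest value in 36 of the 69. *STAT5B*, a transcription factor that relays IL-2 and IL-7 signals but is made in most cells, was at 13.2, 16.3, 22.1 and 32.6 FPKM in N1, N3, N8 and N9, and at 9.59, 7.57 and 6.67 FPKM in T1, T3 and T10. All tumors were below all non-tumor samples, and the log2 fold change was -1.24 with a standard error of 0.47 by limma (unadjusted p = 0.0253, adjusted p = 0.693), with an exact permutation p of 0.0571, the smallest possible. The groups did not overlap in 3 of the 87 genes, beside 5.85% of all tested genes, so this was not more frequent than in the table as a whole. The other two, *SIT1*, an adaptor of T cell signalling (0.131 to 0.502 FPKM in tumor, 0.533 to 6.82 in non-tumor), and *BCL11B*, a factor of the T cell lineage that other tissues also make (0.438 to 1.13 in tumor, 0 to 0.202 in non-tumor), lay on opposite sides, and *SIT1* was not called while *BCL11B* was under the limit for the test. *PRKCQ*, a protein kinase C of T cells and skeletal muscle, was at 56.2 FPKM in N9, 16.7 in N8 and 2.69 in N3 and at most 0.201 in N1 and the tumors (log2 fold change -2.85, standard error 1.17). N8 and N9 were also the samples with the highest skeletal muscle markers, whose part in the *PRKCQ* values was not tested.

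By list, 1 of 23 tested genes of T cell receptor signalling was lower, *PRKCQ*, and 1 of 17 of cytokine receptors and STAT factors, *STAT5B*. In the list of 14 tested cytotoxic and NK genes 0 were called, with a median log2 fold change of -0.73, and N3 was highest in 11 of the 14. In the 16 tested genes of other co-stimulation and checkpoint receptors 0 were called, with a median of -0.30.

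Markers of other blood cells were high in N3 and N8, as were the CD3 chains, but not in T10, whose CD3 sum of 8.28 FPKM was close to that of N8. FPKM summed over all genes were 1.75e+06 in N8 and 582283 in T10. The closeness therefore holds for FPKM, while as a share of the sum T10 lay above N8. B lymphocyte markers summed to 230 FPKM in N3, 81.0 in N8 and between 12.7 and 26.2 in the other 5, with *PAX5* listed at 0 in N1, N9 and all tumors, and plasma cell markers to 3363 in N3, 828 in N8 and at most 135 elsewhere, with the lowest sum, 48.3, in T10. Of the 26.2 FPKM of B lymphocyte markers in T10, 22.3 came from *EBF1*. Macrophage markers were also highest in N3 and N8, at 1010 and 879, and 400 of the 572 FPKM in T1 came from *CD68*, which osteoclasts make as well. Of the neutrophil and granulocyte precursor markers 7 of 9 tested were called lower in tumor, and of the erythroid markers 7 of 10. Among all tested genes 3.58% were called lower. Of the skeletal muscle markers 8 of 10 tested were also called lower, of the endothelial markers 3 of 8 and of the plasma cell markers 2 of 6. In the other marker lists, among them macrophage and B lymphocyte, 0 were called lower. The part of these cells in the values of the T cell, NK and checkpoint genes was not tested.

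**Figure D5:**
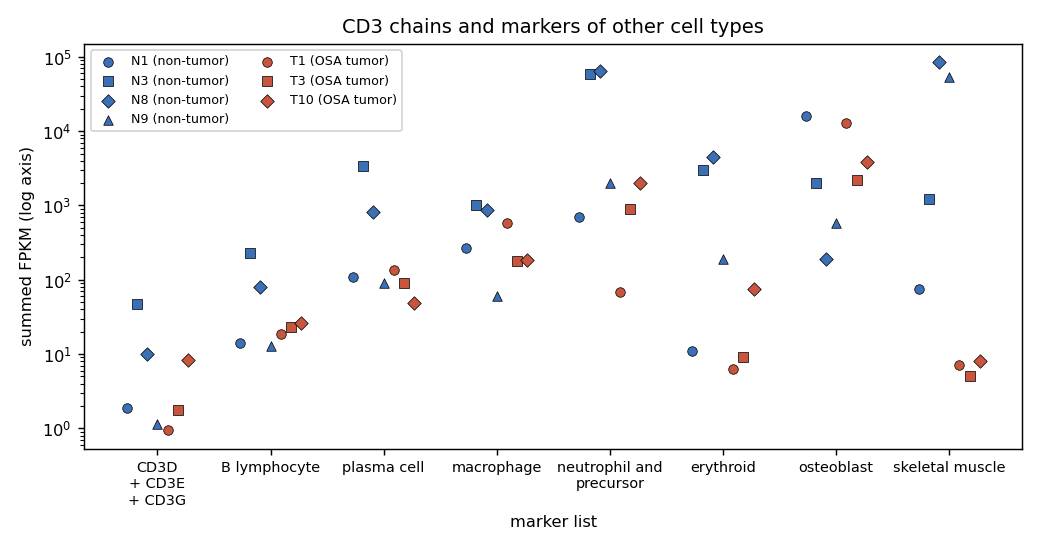
Summed FPKM (y axis, log scale) of the 3 CD3 chains and of marker lists of 7 other cell types in each of the 4 non-tumor and 3 OSA tumor samples. N3 and N8 are the highest for the CD3 chains (47.2 and 9.96), B lymphocyte, plasma cell, macrophage, neutrophil and erythroid lists, while N1 and T1 are highest for osteoblast markers.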

How the data were processed

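RNA of 4 non-tumor and 3 OSA tumor bone samples had been sequenced as paired ends from stranded TruSeq libraries. After trimming with Trim Galore, the authors used Tophat2 to align the reads to the CanFam3.1 genome, and Cufflinks/Cuffdiff gave the deposited FPKM of each gene. Tool versions and the normalization between libraries are not given in the sources used here. A 0 can be a failed estimate. The columns of the authors' own comparison (group values, fold changes, p and q) were not used. Of that table the deposited positions (unit other) were taken, with 1 added to each start, and neighbouring genes can share an interval. The values hold no counts, so absolute depth is unknown. Relative depth and, for 6 genes, approximate fragment numbers were read from the steps between low values by a rule chosen after the data were seen. All 7 samples were used and 0 per-sample columns were left unused.

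The log2(FPKM + 1) of all genes with a mean of 1 FPKM or more was fitted in limma 3.58.1 (R 4.3.3), and the groups were compared by its moderated test with a trend in the prior variance. A fold change on this scale understates the change of low genes. A call needed a log2 fold change of 1 or more in size and an unadjusted p below 0.05. Adjusted p-values (Benjamini-Hochberg) cover all 13507 tested genes. Exact permutation tests were two-sided, with the smaller tail doubled, over 35 assignments of 7 samples to 4 and 3. The fit was tested on simulated data. Replicates are separate samples by their labels, and p-values measure only the spread between these samples. Every listed gene in the table was named, and of the other pathway genes those called. Pathway genes named for another value were chosen after their values were seen. The genes, lists and tests were chosen with earlier results of these data known. Of the 2 symbols with no row, 1 (*CTLA4*) was matched through a synonym of the RefSeq gene table of another assembly, used for names only. Alternatives were pseudocounts of 0.1 and 0.01, no filter, at least 1 FPKM in at least 3 samples, rescaling to the same sum, median ratio scaling, quantile normalization, no trend, sample weights, a replicate block and each sample left out. The replicate block was random over all 7 samples, or fixed over N1, N3, T1 and T3 alone. Scripts ran in Python 3.11.15 with numpy 2.4.6, pandas 2.3.3 and matplotlib 3.10.9.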

Additional observations from a re-analysis of the deposited data

Results flagged for a closer look

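In each of the 35 genes the highest and lowest of the 4 non-tumor samples were compared with the nearest other, as the gap divided by the range of the group on the log2(FPKM + 1) scale, against Dixon's critical value for 4 samples. For normally spread values chance flags about 1 in 20 such groups, and 4 of the 35 were past it. N3 was far above the other non-tumor samples in *CD247* (gap 1, the others being listed at 0), in *PDCD1* (0.929) and in *TIGIT* (0.900). With the others at 0 the gap of *CD247* is 1 for any positive value, so its flag says nothing of the size. For *PDCD1*, N8 and N9 were also listed at 0. N1 was far above them in *CD276* (0.835). On the FPKM scale itself 11 genes were past it. No tumor group was tested in this way, because it held 3 samples.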

How the results depend on the processing

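The genes called over the whole table numbered 926, and 1857 with sample weights, 407 with a fixed replicate block and between 362 and 2011 with each sample left out. The fit with the fixed replicate block held only N1, N3, T1 and T3, so its values also reflect the loss of N8, N9 and T10. Among the T cell, NK and checkpoint genes, 1 was lower, but 0 with a pseudocount of 0.01, without the filter or with the fixed replicate block, and 0 to 1 with a sample left out. The 1 higher became 0 with quantile normalization or without the filter, and 0 to 1 with a sample left out. Shared sample numbers gave correlations of deviations of 0.422 (N1 and T1) and 0.211 (N3 and T3), above the -0.273 to 0.135 of the 10 pairs with different numbers. With 2 such pairs and no statement of a shared dog, the paired fits were alternatives only. With the random replicate block 1 gene was lower and 1 higher.

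Of the 259 values of single genes under settings other than leaving out each sample in turn, 238 kept direction and call and 16 changed sign. *LCK* became 0.0732 at a pseudocount of 0.1, 0.12 at 0.01, 0.0663 after rescaling to the same sum and 0.0048 after quantile normalization. *HAVCR2* became 0.0660 and 0.0347 under these last 2 and 0.11 with sample weights, and *GZMA* 0.0854 and 0.0592. *CD5* became -0.0253 with sample weights and *IL7R* -0.23 at a pseudocount of 0.01. With the replicate block, *LAG3* became -0.03 (random) and -0.46 (fixed), *CD274* -0.11, *GZMB* -0.0701 and *IL7R* -0.31 (fixed). In the fit with the fixed replicate block, which left out N8, N9 and T10, *CD3E* was at -2.12 and *GZMK* at -1.93, neither of them called. Rescaling to the same sum moved the median of all genes to 0.12. *NKG7* lost its call at a pseudocount of 0.01 (-7.00), without the filter (-4.15) and with the fixed block (-2.61), and *CD276* without the filter (2.01) and after quantile normalization (2.08). With a sample left out, 7 of 24 genes kept their sign in all 7 fits and 7 in the fits that tested them (*CD3D*, *ZAP70*, *IL2RA* and *IL2RB* fell under the filter without N3, and *PDCD1*, *EOMES* and *GATA3* without T3). The other 10 changed sign, ranging from -0.78 to 0.27 in *CD2*, -0.10 to 0.59 in *CD5*, -0.44 to 0.47 in *LCK*, -0.15 to 0.36 in *LAG3*, -0.14 to 0.12 in *HAVCR2*, -0.10 to 0.37 in *CD274*, -0.33 to 0.31 in *GZMA*, -0.0680 to 0.44 in *GZMB*, -1.44 to 0.0804 in *GZMK* and -0.17 to 0.72 in *IL7R*. The median log2 fold change over the genes tested in each fit ranged from -0.44 without N9 to 0.36 without N3. It was -0.62 in the fit with the fixed replicate block, without N8, N9 and T10, with 17 of 23 genes negative. The causes were not tested. Low levels limit the 11 genes that were not tested.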

Other observations

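A few genes of T cell receptor and cytokine signalling that other tissues also express had their highest value in T3, and were chosen after their values were seen. T3 was highest in 17.9% of all detected genes. In these lists N3 was highest in 20 of 30 and in 7 of 18 genes of the table, so the chosen genes are single values and show no excess of T3. *LEF1*, a partner of beta-catenin in T cell precursors and in bone-forming cells, was at 68.9 FPKM in T3 and between 0.507 and 12.6 in the other samples (log2 fold change 1.83, standard error 1.04, unadjusted p = 0.111 by limma). *IL15*, a cytokine that sustains NK and memory CD8 T cells, was at 49.3 FPKM in T3 and at most 9.06 elsewhere, and *RASGRP1* at 36.2 against at most 20.1. *RUNX3*, a factor of CD8 T cells and of bone, was at 28.2 FPKM in T3, 20.0 in N1 and 15.1 in T1, and at most 5.26 in the other 4 samples. *TCF7* was at 9.45 FPKM in T3, 8.56 in N1 and 7.36 in T1 and at most 2.88 in the others. None of these 5 genes was called.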
